A study of Mus musculus with 8 samples.

Results

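The comparison described here sets a pair of short hairpin RNAs against each other in cultured mouse erythroid progenitors, across all genes measured. Its members are 4 of the 8 arrays of the series, chosen by their labels: 2 arrays of cells that received a virus encoding shRNA1 and 2 of cells that received a virus encoding shRNA2, all cultured with DEX (dexamethasone, a synthetic glucocorticoid). The other 4 arrays were of cells with a control virus, 2 with DEX and 2 without. The source was the fetal liver of E14.5 C57BL/6 embryos. According to the labels, cells carrying lineage markers, Sca-1, CD16/32, CD41 or CD34 were depleted, and c-kit positive cells in the lowest 10% for CD71 were sorted, infected and cultured for 3 days. The labels call the hairpins' target only an RNA-binding protein (RBP); the name Zfp36l2 is known from the published work. Whether the 2 arrays of a group came from different cultures or embryos is not given, so p-values here measure only the spread between arrays, which may be technical.

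Early erythroid progenitors can either renew themselves or go on to make red cells, and glucocorticoids are known to favour renewal. Maturing cells switch on globin, haem synthesis and membrane skeleton genes and lose Kit, the receptor for stem cell factor. Proteins of the ZFP36 family bind AU-rich elements in mRNA and recruit the deadenylation machinery, which shortens the life of the message. A short hairpin RNA is processed into a small RNA that guides cleavage or repression of matching mRNA, and it can also act on other mRNAs with partial matches. More than 1 hairpin against a target is commonly used for that reason, and comparing them directly shows where the transcriptomes of the knockdown cells are not alike.

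Every value is the array's processed signal on the log2 scale minus the 75th percentile of that array, called the normalized level here, and a difference is always shRNA2 minus shRNA1. Arrays numbered 1 shared slide 1 and arrays numbered 2 shared slide 2, so each slide gives its own difference. Each group also had the same position on both slides, so position and group cannot be told apart. Between 58.9% and 62.5% of probes were well above background on an array, and the number of arrays limits the precision. The 75th percentile of the processed signal was 476 for shRNA1 and 522 for shRNA2 on slide 1, against 966 to 2061 on the other 6 arrays. Levels differed more between the slides than between the hairpins. The median absolute difference over genes was 0.81 between the shRNA1 arrays and 0.86 between the shRNA2 arrays, but 0.34 between the hairpins on slide 1 and 0.26 on slide 2.

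No difference in the level of the target was detectable between the hairpins on these arrays. The normalized level of Zfp36l2 (probe at chromosome 17, 84583415 to 84583474, build mm9) was 4.09 and 3.92 with shRNA1 and 4.12 and 3.70 with shRNA2. In control cells it was 5.55 and 5.42 with DEX and 3.49 and 3.85 without. The hairpin arrays overlapped each other and lay below both control arrays with DEX. The difference was -0.09 (SE 0.31), with a 95% interval of -0.85 to 0.66 in the limma fit. Its sign turned when the median of each array was the scale (0.06). Zfp36l1, a paralogue with the same kind of zinc fingers, had levels of 0.53 and 0.52 with shRNA1 and 0.10 and 0.16 with shRNA2, lower with shRNA2 on both slides by a small step, and a difference of -0.39 (SE 0.30). Zfp36, also called tristetraprolin, was well above background on 1 of the 2 arrays of each hairpin and differed by -0.53 (SE 1.33), and Zfp36l3 differed by -0.16 (SE 0.76).

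No gene passed the test between the hairpins. Limma, fitted on all 8 arrays in 4 groups with Benjamini-Hochberg adjustment, called 0 of 19130 genes (0%), with a smallest adjusted p of 0.613, and 456 genes had an unadjusted p below 0.05, where 956 are expected by chance. With the slide as a block limma called 0 genes as well (0%, smallest adjusted p = 0.131). In that fit 2105 genes had an unadjusted p below 0.05, beside the same 956 expected by chance. Genes are not independent, so neither count is a test. The median standard error of a difference was 0.49 without the block, where the gap between the slides counts as error, and 0.26 with it. Unless stated otherwise, each SE and interval given for a gene in this report is from the fit without the block and includes the gap between the slides. What follows therefore describes levels and differences, with no gene called changed.

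Genes with a difference of at least 2-fold the same way on both slides were mostly lower with shRNA2. There were 61 such genes higher with shRNA2, which is 0.319% of all genes tested, and 294 lower, which is 1.54%. Another 68 genes were at least 2-fold apart in opposite ways on the slides, 54 of them higher with shRNA2 on slide 1 and lower on slide 2. Slide 1 alone had 1017 genes at least 2-fold higher and 1221 lower, and slide 2 had 232 and 923. The split between higher and lower depended on the scale: it was 121 to 183 with the array median and 95 to 194 with quantile normalization. The higher genes were 39.8% and 32.9% of these, beside 17.2% with the scale used here. Normexp background correction left 8 higher and 63 lower (11.3% higher), and there were 20 and 69 (22.5% higher) in the authors' deposited log2 table. In both, mainly the number of genes fell. Of the 61 and 294 genes, 8 and 62 remained at least 2-fold on both slides with normexp, and 17 and 66 in the authors' values. The median difference of all genes was -0.13 with the scale used here and 0.02 with the array median. Across all genes, the differences on the slides had a correlation of 0.32, given as a description, since genes are not independent. The 2-fold genes were dim: their median level was -4.44 for the higher and -4.06 for the lower genes, against -0.90 over all genes, and 30 of 61 and 158 of 294 were well above background on all 4 hairpin arrays, against 87.3% of all genes.

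**Figure D1:**
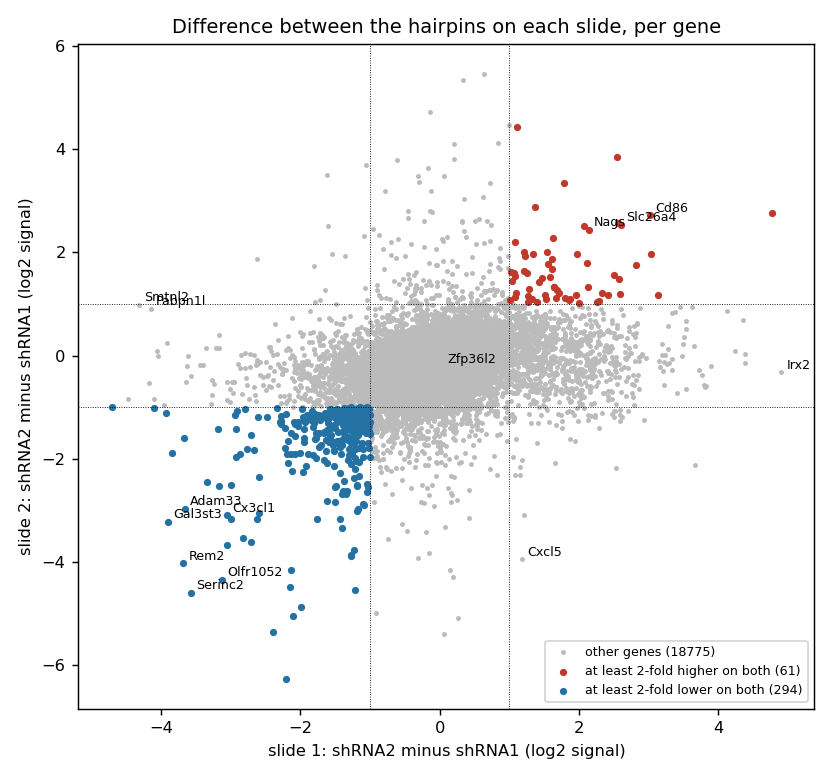
Difference of shRNA2 minus shRNA1 (log2 signal) on slide 1 (horizontal) and slide 2 (vertical), 1 point a gene, with dotted lines at 2-fold. The 294 genes lower on both slides (blue) outnumber the 61 higher on both (red), and Irx2, Cxcl5 and Smtnl2 are examples where the slides disagree.

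Several of the genes lower with shRNA2 were high with shRNA1 and low in every other group. Rem2, a Ras-like GTPase of the RGK family that restrains calcium channels, had the most separated levels: -3.84 and -3.12 with shRNA1 and -7.53 and -7.15 with shRNA2, and -7.00 and -6.60 in control cells with DEX and -6.41 and -6.73 without. Both shRNA1 arrays stood above all 6 others, which were close together. Its difference was -3.86 (SE 0.38), with a limma adjusted p of 0.613. Because Rem2 was not well above background on either shRNA2 array, the fold is given as a bound, the mean of the brighter group against the lowest signal that counts as above background on each dimmer array: at least 5.52-fold higher with shRNA1. Its probe lies at chromosome 14, 55098859 to 55098918 (mm9).

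Gal3st3, a sulfotransferase that acts on galactose, had the same shape, with levels of -3.48 and -3.42 with shRNA1 and -7.39 and -6.64 with shRNA2 and at or below -7.72 on all 4 control arrays. It was at least 5.66-fold higher with shRNA1. Olfr1052, an olfactory receptor gene, was at -4.27 and -4.25 with shRNA1 and -7.41 and -8.60 with shRNA2, with control levels from -8.56 to -8.23, and was at least 3.21-fold higher with shRNA1. Cx3cl1, the membrane-bound chemokine fractalkine, was at -3.58 and -3.30 with shRNA1 and -6.64 and -6.39 with shRNA2, at -6.65 and -6.58 in control cells with DEX and somewhat higher, -5.68 and -4.87, without DEX. It was at least 5.49-fold higher with shRNA1. Limma gave these 3 genes and Rem2 the same, smallest adjusted p of 0.613.

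In Serinc2 it was shRNA2 whose level lay near that of control cells with DEX. Serinc2, of the serine incorporator family (probe at chromosome 4, 129930742 to 129930801, mm9), was at -0.51 and -1.58 with shRNA1 and -4.08 and -6.18 with shRNA2. Control cells had -5.32 and -5.19 with DEX and -1.42 and -1.47 without, so that shRNA1 lay by the cells without DEX and shRNA2 by those with it. The difference was -4.09 (SE 0.72), a fold of 17, and 2 other probes of the gene differed by -3.61 and -3.21. In Perm1 and Adam33 the order was another. Perm1, a regulator of mitochondrial genes known from muscle, was at -4.30 and -6.04 with shRNA1 and -7.47 and -8.56 with shRNA2, at -5.86 and -6.24 in control cells with DEX and at -3.28 and -3.87 without, so that shRNA1 was the nearer hairpin to control cells with DEX, and Perm1 was at least 1.71-fold higher with shRNA1. Adam33, a membrane metalloprotease, was at 1.80 and 0.68 with shRNA1 and -1.87 and -2.29 with shRNA2, with 0.20 and -0.49 in control cells with DEX and -2.92 and -3.48 without. Its difference was -3.32 (SE 0.50), and a further probe gave -3.57. Adam33 was the 1 gene that passed when normexp background correction and the slide block were combined, a setting chosen after the data were seen (limma adjusted p = 0.0306; the adjusted p was 1 without either).

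The remaining genes named on this side were Rnu3b1, Ypel4 and Raet1c. Rnu3b1 is a copy of the U3 small nucleolar RNA that takes part in ribosomal RNA processing; its levels were 7.77 and 5.59 with shRNA1 and 4.72 and 1.92 with shRNA2, and near-identical copies make the single gene's value uncertain. Ypel4, of the yippee-like family, was at -0.60 and -2.59 with shRNA1 and -3.59 and -5.75 with shRNA2, and the arrays of slide 2 were the lower ones for both hairpins. Raet1c, a ligand of the NKG2D receptor with close copies in the genome, was at -4.61 and -5.16 with shRNA1 and -7.44 and -8.69 with shRNA2, but the control arrays with DEX were themselves apart (-3.69 and -8.68). Over the 294 genes lower with shRNA2, the shRNA2 level was nearer to the control level with DEX on both slides in 189 (64.3%), and the shRNA1 level in 27. Over all genes these distances favoured shRNA2 in 39.0% and shRNA1 in 20.0%. The 294 genes were chosen by the hairpin levels, and 158 of them were well above background on all 4 hairpin arrays. Where shRNA2 and the control cells both lay at background, shRNA2 is the nearer by construction. The shares are therefore not a like comparison, and no conclusion is drawn from them. Both distances use the same control arrays.

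The genes higher with shRNA2 were fewer and closer to background. Cd86, a costimulatory ligand of antigen-presenting cells (probe at chromosome 16, 36603961 to 36604020, mm9), was at -6.99 and -6.81 with shRNA1 and -3.97 and -4.09 with shRNA2. It was not well above background with shRNA1 or in control cells with DEX (-8.53 and -7.42), and was at least 3.77-fold higher with shRNA2, with a difference of 2.87 (SE 0.87). Slc45a1, a sugar transporter, was at -5.56 and -7.38 with shRNA1 and -3.78 and -4.04 with shRNA2, at least 4.10-fold higher, and Iqcf5, a protein with an IQ motif, at -6.16 and -7.19 with shRNA1 and -3.13 and -5.22 with shRNA2, at least 3.41-fold higher. Slc26a4, the anion exchanger pendrin, was at least 1.66-fold higher, Spin4, of the spindlin family, at least 2.25-fold, Nrcam, a neuronal adhesion molecule, at least 1.77-fold, and the netrin receptor gene Unc5a at least 1.68-fold. In each of these 7 genes neither shRNA1 array was well above background.

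Only 3 of the 10 named genes on this side were measured above background in both hairpin groups. Nags, which makes the N-acetylglutamate that switches on the urea cycle, was at -4.85 and -4.03 with shRNA1 and -2.71 and -1.59 with shRNA2, and control cells with DEX lay between (-3.46 and -2.71). Its difference was 2.29 (SE 0.52), a fold of 4.89. Pkdcc, a secreted tyrosine kinase, was at -3.66 and -4.59 with shRNA1 and -1.55 and -2.80 with shRNA2, with control cells with DEX at -4.52 and -4.28, close to shRNA1. Frmpd1, a scaffold with FERM and PDZ domains, was at -3.27 and -4.82 with shRNA1 and -1.72 and -2.80 with shRNA2, and here the control cells with DEX (-1.72 and -3.33) lay nearer to shRNA2. Without the slide block no limma adjusted p among the 10 genes was below 0.99, and with it the smallest was 0.153, for Slc26a4. Over the 61 genes, shRNA2 was nearer to control cells with DEX on both slides in 25 (41.0%) and shRNA1 in 21. Over all genes the shares were 39.0% and 20.0%. These genes were also chosen by the hairpin levels. Where shRNA1 and the control cells both lay at background, shRNA1 is the nearer by construction.

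**Figure D2:**
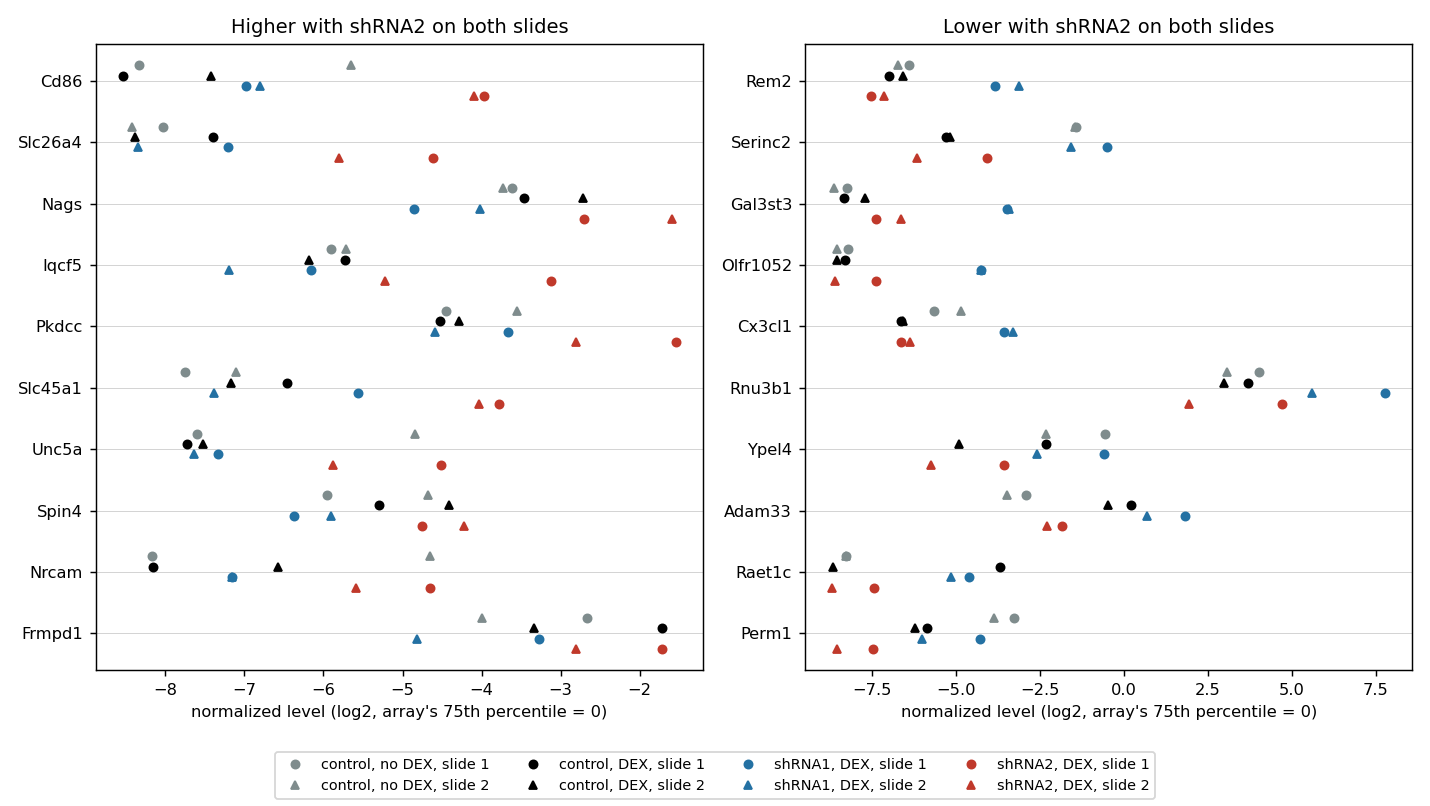
Normalized level (log2, horizontal) on each of the 8 arrays for the 10 named genes higher and the 10 lower with shRNA2; circles are slide 1, triangles slide 2. Rem2, Gal3st3 and Olfr1052 were high on the 2 shRNA1 arrays only, whereas Serinc2 was high with shRNA1 and in control cells without DEX.

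Red cell genes were lower with shRNA2 than with shRNA1 on both slides in nearly every case. Of 59 genes tested in the lists of adult globins, haem synthesis and red cell membrane, 53 were lower with shRNA2 on both slides, 2 were higher and 4 went opposite ways; over all 19130 genes, 8761 were lower and 4255 higher on both. At least 2-fold on both slides were 10 of the 59, all lower, beside 294 lower (1.54%) and 61 higher (0.319%) of all 19130 genes. None of the 59 passed the test. The arrays of the hairpins did not overlap in 20 of the 59 (33.9%), beside 3231 of all 19130 genes (16.9%). List medians are given below after subtracting the median of all genes, because the scale moves the latter. The medians were -0.72 (-0.63 on slide 1 and -0.72 on slide 2) for adult globins with Ahsp, -0.53 (-0.64 on slide 1 and -0.44 on slide 2) for haem synthesis and -0.55 (-0.67 on slide 1 and -0.49 on slide 2) for the membrane and late erythroid list. Under the other scalings, 31 to 33 of the 39 membrane genes, 11 or 12 of the 13 haem genes and 6 or 7 of the 7 globin genes were lower on both slides. The shRNA2 level was nearer to that of control cells with DEX on both slides in 39 of the 59 genes, and the shRNA1 level in 5. Over all genes the shares were 39.0% for shRNA2 and 20.0% for shRNA1. Leaving out 1 hairpin array, which unbalances the slides, put the globin median anywhere from -1.04 without shRNA2 replicate 1 to -0.031 without shRNA2 replicate 2.

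Among globins, Ahsp, which chaperones free alpha globin, was at 7.46 and 7.0 with shRNA1 and 6.48 and 5.93 with shRNA2, with 6.4 and 6.11 in control cells with DEX and 7.81 and 7.26 without. Both shRNA1 arrays lay above both shRNA2 arrays, which lay on either side of the control arrays with DEX. The difference was -1.02 (SE 0.37). The alpha globin copies Hba-a1 and Hba-a2 differed by -0.41 (SE 0.88) and -0.35 (SE 0.80), with overlapping arrays. The adult beta globins Hbb-bs and Hbb-bt differed by -0.89 (SE 0.78) and -0.32 (SE 0.82), also with overlap. Hbq1a and Hbq1b differed by -1.02 and -0.85. The median difference of all genes was -0.13. Probes of near-identical globin copies can pick up each other's signal, so single values are uncertain.

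In the haem pathway, 12 of 13 genes were lower. Alas2, the erythroid enzyme that starts haem synthesis, was at 7.50 and 4.96 with shRNA1 and 6.34 and 2.89 with shRNA2. The slides were further apart than the hairpins, but on each slide shRNA2 lay lower (-1.16 on slide 1 and -2.07 on slide 2). Uros, uroporphyrinogen synthase, was at 4.73 and 4.08 with shRNA1 and 3.50 and 2.96 with shRNA2, with no overlap and a difference of -1.18 (SE 0.45). Fech, the ferrochelatase that inserts iron, differed by -1.15 and -0.89 on slides 1 and 2, and Urod, an intermediate enzyme, by -0.61 and -0.57. The exception was Alas1, the form of the first enzyme used outside red cells, at 0.48 (SE 0.33). Slc25a37, mitoferrin, which brings iron into mitochondria, was at 6.16 and 4.81 with shRNA1 and 4.85 and 3.16 with shRNA2 and differed by -1.31 on slide 1 and -1.65 on slide 2; the iron list as a whole did not share a direction (2 higher and 6 lower of 14, median -0.15).

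Among membrane and late genes, 34 of 39 were lower on both slides, 8 of them at least 2-fold. Over all genes, 45.8% were lower on both slides and 1.54% at least 2-fold lower. Trim10, a ubiquitin ligase of terminal erythroid cells, was at 3.37 and 2.40 with shRNA1 and 1.85 and 0.26 with shRNA2, with 2.11 and 0.37 in control cells with DEX and 3.62 and 2.82 without. The hairpins' arrays did not overlap, and the difference was -1.83 (SE 0.80, or 0.30 with the slide as a block). Tmcc2, a transmembrane protein of late erythroid cells, had the lowest value of the list at -2.47, but its arrays ran from 3.41 to -3.52 and overlapped. Its SE was 2.25, or 0.63 with the slide as a block, and its differences were -1.76 on slide 1 and -3.17 on slide 2. Among the other members at least 2-fold lower on both slides were Rhd, a blood group protein, at -1.45 (SE 0.32), the water channel gene Aqp1 at -1.77 (SE 0.67), and Slc4a1, the anion exchanger band 3, at -1.85 (SE 1.24). Epb42, a protein of the membrane skeleton, was at -1.15 (SE 0.57) and the kinase gene Fn3k at -1.70 (SE 1.36). Cd44, an adhesion receptor that erythroblasts lose as they mature, was the 1 member higher on both slides, at 0.32 (SE 0.37).

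The promoters of Tmcc2 and Trim10 are shown because these genes had the largest smaller-slide difference of the red cell lists and their windows hold a GATA motif, the letters bound by the erythroid factor GATA1. The sequences are RefSeq's on build GRCm38.p6, 250 bases up to the annotated start on the gene's strand, with AGATAA on either strand and CACACCC on either strand in capitals.
Tmcc2 (chr1:132367949-132368198, minus strand): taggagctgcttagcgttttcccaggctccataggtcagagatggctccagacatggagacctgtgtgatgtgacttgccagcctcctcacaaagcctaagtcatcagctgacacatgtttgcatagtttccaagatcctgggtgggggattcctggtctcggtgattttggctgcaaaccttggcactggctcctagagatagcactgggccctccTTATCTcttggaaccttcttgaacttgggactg
Trim10 (chr17:36869324-36869573, plus strand): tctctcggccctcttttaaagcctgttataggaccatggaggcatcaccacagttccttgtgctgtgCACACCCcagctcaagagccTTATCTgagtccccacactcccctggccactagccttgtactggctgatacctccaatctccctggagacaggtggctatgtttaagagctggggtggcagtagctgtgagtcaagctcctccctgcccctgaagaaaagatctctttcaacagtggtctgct
The GATA motif begins 33 bases before the annotated start in Tmcc2 and 163 bases before it in Trim10, and Trim10 also holds a CACACCC run. Over 300-base windows, from 250 bases before to 50 after each start, AGATAA on either strand was in 11 of 42 red cell list genes that have a window (26.2%), in 28 of 154 genes at least 2-fold lower on both slides (18.2%), in 3 of 39 at least 2-fold higher (7.69%) and in 1004 of 11182 genes tested (8.98%). CACACCC was in 8 of the 42 (19.0%), 13 of the 154 (8.44%), 3 of the 39 (7.69%) and 1119 of the 11182 (10.0%). A match is a run of letters, not a measured binding site.

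Factors that drive the red cell program were split. Of 22 erythroid transcription factors, 12 were lower and 4 higher on both slides, with a median of -0.10 (-0.26 on slide 1 and -0.01 on slide 2). That is 54.5% and 18.2%, beside 45.8% and 22.2% over all genes. Gata1 was at 5.45 and 5.42 with shRNA1 and 5.17 and 5.46 with shRNA2, with overlapping arrays and a difference of -0.12 (SE 0.28). Sox6, which silences embryonic globin genes, was at -2.25 and -2.37 with shRNA1 and -4.07 and -3.76 with shRNA2 and was the 1 member at least 2-fold lower on both slides, at -1.61 (SE 0.45). Foxo3 and E2f2, which act late in erythroid maturation, differed by -0.97 (SE 0.59) and -0.82 (SE 0.53).

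Early progenitor genes leaned the other way: the list had 11 higher and 4 lower of 19 on both slides, with a median of 0.61 (0.71 on slide 1 and 0.28 on slide 2), and none of the 19 was 2-fold apart on both slides or passed the test. Over all genes, 22.2% were higher and 45.8% lower on both. Kit was at 2.55 and 2.36 with shRNA1 and 3.21 and 3.60 with shRNA2, with 3.88 and 3.45 in control cells with DEX and 1.99 and 1.89 without. Both shRNA2 arrays lay above both shRNA1 arrays, and the difference was 0.95 (SE 0.31), with a 95% interval of 0.18 to 1.71 in the limma fit. Sox4, a factor of immature cells, was at -2.63 and -2.24 with shRNA1 and -1.20 and -1.49 with shRNA2, a difference of 1.09 (SE 0.42), although 2 other probes gave 0.83 and 0.46. Hhex differed by 0.58 and 0.56 on slides 1 and 2, and Myb by 0.46 and 0.39. Cd34 (2.50 and 0.36), Flt3 (2.81 and 0.19) and Ly6a (3.82 and -0.59), by contrast, were far apart on slide 1 and not on slide 2, as were the myeloid markers described below, whose part in the progenitor list was not tested. Lmo2, with the highest level in the list, differed by -0.62 (SE 0.40).

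**Figure D3:**
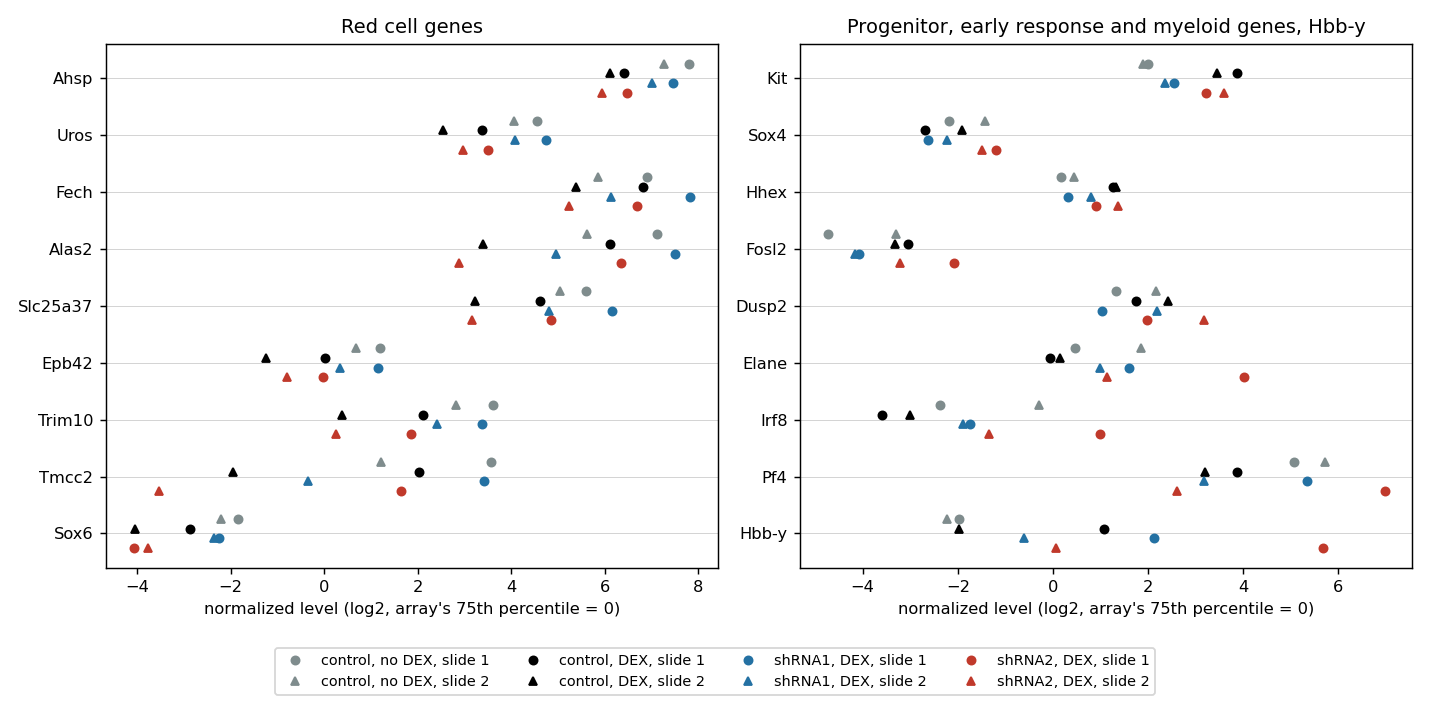
Normalized level (log2, horizontal) on each of the 8 arrays for 9 red cell genes and for 9 progenitor, early response and myeloid genes with Hbb-y; circles are slide 1, triangles slide 2. For Trim10, Uros and Ahsp both shRNA1 arrays lie above both shRNA2 arrays, whereas Elane, Irf8, Pf4 and Hbb-y are highest on the shRNA2 array of slide 1.

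Markers of myeloid cells mostly went opposite ways on the slides, and most were highest on the shRNA2 array of slide 1. Of 73 markers tested in the granulocyte, monocyte, megakaryocyte, mast cell and eosinophil lists, 61 were higher with shRNA2 on slide 1, 52 of them at least 2-fold, and 58 were lower on slide 2, 13 of them at least 2-fold. On 55 of the 73, the shRNA2 array of slide 1 was the highest of all 8, beside 3170 of all 19130 genes. Among all genes, 5.32% were at least 2-fold higher on slide 1 and 4.83% at least 2-fold lower on slide 2. The sort had removed cells with CD16/32, CD41 or CD34 before culture. The part of these cells in the differences above was not tested. In bulk RNA, fewer cells of a type and less RNA per cell cannot be told apart.

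The granulocyte list had a median of 0.85 (2.31 on slide 1 and -0.59 on slide 2), with 20 of 21 members higher on slide 1 and 20 of 21 lower on slide 2. Its median level was 0.67 and 0.43 with shRNA1, 2.94 and -0.18 with shRNA2, -1.15 and -1.10 in control cells with DEX and -1.62 and 0.31 without. Elane, neutrophil elastase, was at 1.61 and 0.98 with shRNA1 and 4.02 and 1.13 with shRNA2, so that 1 array stood apart. The monocyte list had 1.08 (2.24 on slide 1 and -0.10 on slide 2), with Irf8, a factor of the monocyte line, at -1.74 and -1.89 with shRNA1 and 0.98 and -1.34 with shRNA2 and the complement gene C1qb at -3.20 and -4.08 with shRNA1 and -3.73 and -4.56 with shRNA2. The megakaryocyte list had 0.58 (1.69 on slide 1 and -0.42 on slide 2), with platelet factor 4, Pf4, at 5.35 and 3.18 with shRNA1 and 6.97 and 2.61 with shRNA2. Mast cell markers lay at 0.61 (0.81 on slide 1 and -0.15 on slide 2), with granzyme B, Gzmb, at -4.89 and -4.32 with shRNA1 and -2.16 and -3.85 with shRNA2, and eosinophil markers at 1.05 (2.11 on slide 1 and -0.10 on slide 2). Lymphoid (3 higher and 4 lower of 9 on both slides, median 0.10), hepatocyte (1 higher and 3 lower of 8, 0.19) and endothelial or stromal markers (2 higher and 3 lower of 8, 0.03) showed no shared direction. Only 9 of 20, 8 of 16 and 8 of 16 of these listed genes were tested, and the albumin gene Alb was among those too dim.

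Embryonic globins also had medians of opposite sign on the slides, at 0.50 (1.71 on slide 1 and -0.57 on slide 2). Hbb-y, an embryonic beta-like globin, was at 2.13 and -0.60 with shRNA1 and 5.67 and 0.06 with shRNA2, with 1.07 and -1.97 in control cells with DEX. The shRNA2 array of slide 1 stood above the other 7, and the difference of 2.10 (SE 1.99) was 3.54 on slide 1 and 0.66 on slide 2. Hbb-bh1 differed by 1.67 on slide 1 and -0.67 on slide 2.

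**Figure D4:**
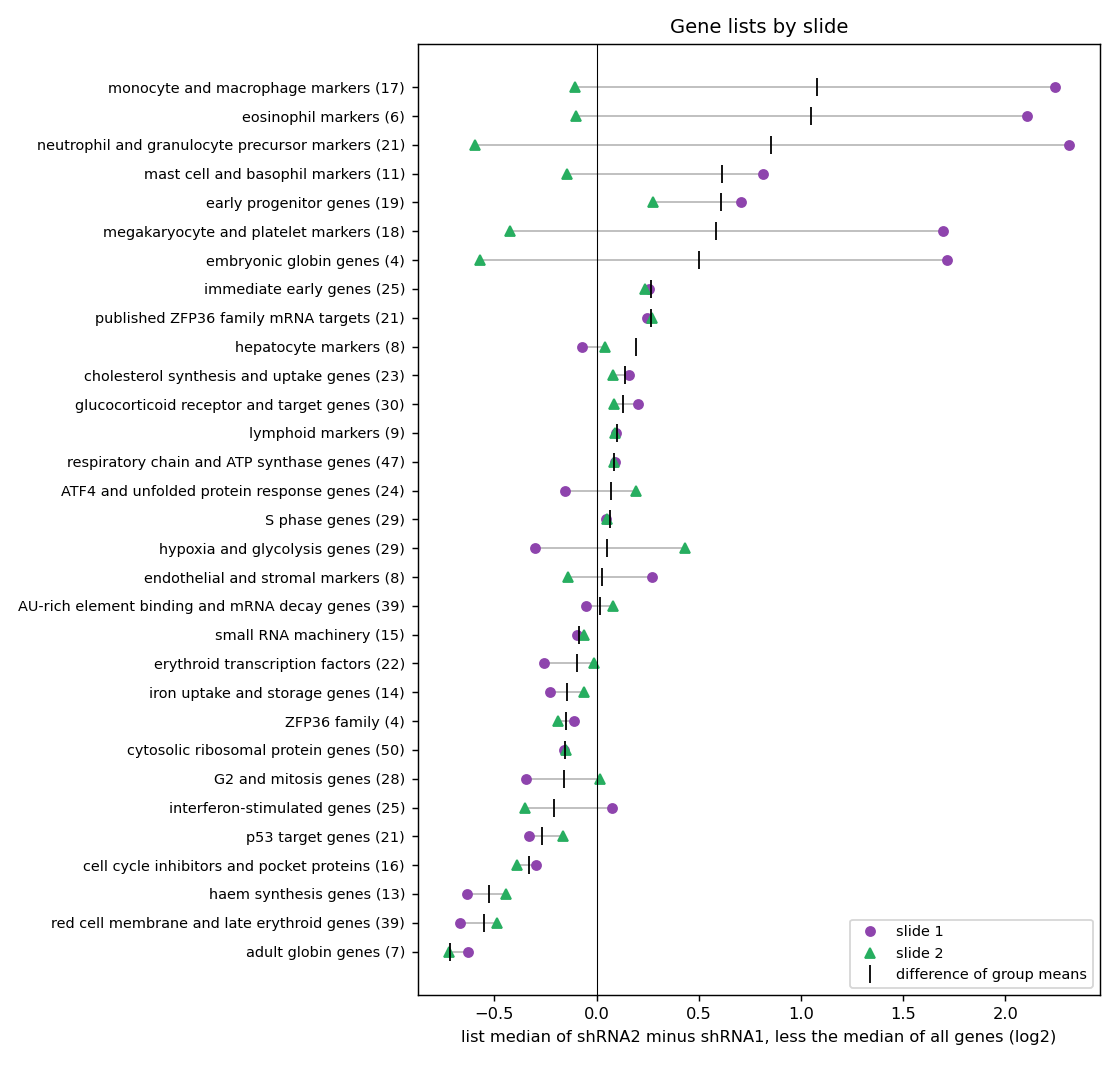
Median over each list's tested genes (number in brackets) of shRNA2 minus shRNA1, less the median of all genes (log2), on slide 1 (circles), slide 2 (triangles) and for the group means (ticks). The red cell lists lie left of 0 on both slides, and the myeloid lists and embryonic globins lie right of 0 on slide 1 and left on slide 2.

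Among genes that restrain the cell cycle, more were lower with shRNA2 than higher. Of 16 inhibitors and pocket proteins, 11 were lower and 2 higher on both slides, with a median of -0.33 (-0.30 on slide 1 and -0.39 on slide 2). Over all genes, 45.8% were lower and 22.2% higher on both. With the array median as the scale, 8 of the 16 were lower and 4 higher, beside 4924 lower and 6442 higher of all 19130 genes. Rb1, the retinoblastoma protein that holds back E2F, was at 3.71 and 2.97 with shRNA1 and 2.84 and 2.08 with shRNA2, a difference of -0.89 (SE 0.47). Gadd45a, a stress-induced growth arrest gene, differed by -1.04 on slide 1 and -1.31 on slide 2, and Cdkn1b, which encodes p27, by -0.86 on slide 1 and -0.81 on slide 2; the arrays of both overlapped. Cdkn1c, which encodes p57 and is induced by glucocorticoids, was at -0.75 and -1.49 with shRNA1 and -2.56 and -2.12 with shRNA2. The p53 targets, with Gadd45a and Btg2 among them, were 2 higher and 15 lower of 21 (22.2% higher and 45.8% lower over all genes). Their median was -0.27 (-0.33 on slide 1 and -0.16 on slide 2). The death receptor gene Fas was at -1.06 and -1.62 with shRNA1 and -1.82 and -2.90 with shRNA2.

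Proliferation genes differed less. S phase genes were 5 higher and 13 lower of 29 (17.2% and 44.8%, beside 22.2% and 45.8% over all genes), at 0.07. Mcm6, of the replicative helicase, differed by 0.20 (SE 0.78). G2 and mitosis genes were lower in 23 of 28 on both slides. The number was 22 with quantile normalization, 21 with normexp and 23 in the authors' table. With the array median as the scale it was 5 of 28, beside 4924 of all 19130 genes. The list's median was -0.16 (-0.35 on slide 1 and 0.02 on slide 2). Mki67 differed by -0.85 (SE 0.46) and Ccna2 by -0.54 (SE 0.84). Ribosomal protein genes were lower in 46 of 50 on both slides, at -0.16, but quantile normalization gave 19 lower and 12 higher, so no direction is given for them. Respiratory chain genes were 17 higher and 20 lower of 47, at 0.08.

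Immediate early genes and published targets of the ZFP36 family lay a little above all genes in the median difference. Immediate early genes were 11 higher and 7 lower of 25, with a median of 0.27 (0.25 on slide 1 and 0.24 on slide 2). Fosl2, an AP-1 subunit, was at -4.08 and -4.17 with shRNA1 and -2.07 and -3.21 with shRNA2, with no overlap and a difference of 1.48 (SE 0.59). Dusp2, a phosphatase of MAP kinases, was at 1.02 and 2.18 with shRNA1 and 1.97 and 3.18 with shRNA2. Its arrays overlapped, and its difference was 0.98 (SE 0.62, or 0.22 with the slide as a block). Dusp4 differed by 1.28 (SE 0.61) and was well above background on 1 of the 2 shRNA1 arrays. The published targets were 8 higher and 5 lower of 21, at 0.27 (0.25 on slide 1 and 0.27 on slide 2); the kinase gene Pim1 differed by -0.93 (SE 0.83), Plk2 by -0.52 (SE 0.39) and Ccnd1, cyclin D1, by 1.09 (SE 0.88). The mRNA decay genes themselves were 11 higher and 20 lower of 39 (28.2% and 51.3%), at 0.02. The shares over all genes were 22.2% and 45.8%. Tia1, an AU-rich element binding protein, differed by -0.65 (SE 0.30), although another probe gave 0.32.

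The machinery that processes a hairpin was measured on the same arrays. Small RNA genes were 4 higher and 9 lower of 15 (26.7% and 60%), at -0.09, beside 22.2% and 45.8% over all genes. Drosha, which cuts primary microRNAs, was at 3.02 and 3.43 with shRNA1 and 2.16 and 2.87 with shRNA2, without overlap and with a difference of -0.71 (SE 0.35); Ago3, an Argonaute protein, differed by -0.78 (SE 0.90), and Tnrc6a, a partner of Argonaute, by -0.61 (SE 0.31). Glucocorticoid receptor targets were 11 higher and 9 lower of 30, at 0.13, and the metallothionein gene Mt1 differed by -0.32 (SE 0.35).

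The genes with the widest gap between the slides show how far 1 array could carry a difference. Irx2, a homeobox gene, was at -7.65 and -5.85 with shRNA1 and -2.75 and -6.17 with shRNA2, and Il6, a cytokine, at -7.54 and -4.43 with shRNA1 and -3.15 and -4.58 with shRNA2; in both the shRNA2 array of slide 1 stood above the other 3 hairpin arrays. Rasl11b, a small GTPase, was at -7.69 and -3.19 with shRNA1 and -4.02 and -5.31 with shRNA2, where the shRNA1 arrays were the ones apart, and Cxcl5, a chemokine, at -4.30 and -3.90 with shRNA1 and -3.12 and -7.84 with shRNA2, where the shRNA2 array of slide 2 was low. In the other direction, Smtnl2 was at -0.68 and -4.77 with shRNA1 and -5.01 and -3.78 with shRNA2 and Pabpn1l, a poly(A)-binding protein of germ cells, at 1.97 and -5.32 with shRNA1 and -2.18 and -4.41 with shRNA2; both were highest on the shRNA1 array of slide 1. Fmn1, a formin, was at -6.22 and -7.55 with shRNA1 and -7.27 and -3.86 with shRNA2, and Apoa1, an apolipoprotein, at -1.20 and -4.96 with shRNA1 and -3.83 and -3.09 with shRNA2. The SE of these 8 differences ran from 1.08 for Fmn1 to 2.64 for Pabpn1l. Irx2, Il6 and Rasl11b were each well above background on 1 of the 2 shRNA1 arrays, and Cxcl5 on 1 of the 2 shRNA2 arrays. Fmn1 was well above background on neither shRNA1 array and on 1 of the 2 shRNA2 arrays.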

How the data were processed

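The 8 samples were total RNA on 1-colour (Cy3) Agilent arrays. Per the file headers, the authors quantified them with Agilent Feature Extraction 10.1.1.1, and the deposited intensity used here is the processed signal on a linear scale. A log2 table deposited by the authors served only as an alternative. How it was made is not given in the sources used here. The medians of its columns were 6.65 to 6.66, with no centring per gene. Per the submitters' processing notes, Agilent Feature Extraction and limma were used. Probe positions are those of the files (build mm9); exons and untranslated regions at the probes were not analysed here.

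Of 44397 spots, 1377 controls and spots marked as outliers were left out, and 441 of 39429 probes had no usable spot on some array. Spots of a probe were averaged. The log2 signal minus the array's 75th percentile was analysed. A name came from the probe's accession through RefSeq (GRCm38.p6) for 26581 probes and from the file for 12848. The test took probes that were well above background on the 2 arrays of any group, and used for each gene the probe of highest mean; 3900 of 19130 genes had several. The 4 groups entered 1 fit (R 4.3.3; limma 3.58.1, lmFit then eBayes), with no block, at a Benjamini-Hochberg adjusted p below 0.05, and again with the slide as a block. Same-numbered arrays shared a slide per the file headers, and their deviations from the group means correlated at 0.43 to 0.86. The fit was also run on simulated data with independent noise and no shared slide effect. That run checks the calculation and does not measure the power to find differences on these arrays. Lists are described by counts and medians, with no test.

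Named genes were 10 per direction at least 2-fold apart the same way on both slides, without overlap of arrays, above background on both arrays of the higher hairpin and not clone or predicted names, ordered by the smaller slide difference; the 4 per direction with the widest gap between slides; the ZFP36 family; and per list up to 3 members of largest smaller-slide difference and the one of highest level. Further genes were named from their lists after their values were seen. One gene that the rule names is not reported here. Members, lists and rules were chosen with earlier results of these data known. Alternatives were array median, quantile and normexp (offset 50, local background capped at its 99th percentile) processing, the authors' log2 values, no filter, probe means, the slide block, the 4 hairpin arrays alone and leaving out each array. Tables and plots were made with data.table (version 1.17.8), pandas 2.3.3 and matplotlib 3.10.9.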

Additional observations from a re-analysis of the deposited data

How the results depend on the processing

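Limma called 0 genes with each other processing listed above, leaving out each of the 8 arrays included (0 in every case), and with the slide as a replicate block, alone or with 3 of the 4 other scalings. The replicate block with normexp, added after seeing the data, called 1 (Adam33). The counts of genes at least 2-fold higher and lower on both slides (61 and 294) became 121 and 183 with the array median, 95 and 194 with quantile normalization, 8 and 63 with normexp, 20 and 69 in the authors' table and 140 and 515 with no filter on dim probes. Leaving out 1 hairpin array leaves 1 slide, with 232 to 1017 higher and 923 to 1221 lower. Over all 144 genes the naming rule gave, 8 changed sign under another processing and 65 with 1 array left out.

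The slide 1 median of adult globins (-0.63) was -0.34 with quantile normalization and -0.32 in the authors' table. The slide 2 median (-0.72) was -0.77 and -0.71 in these. The median of adult globins from the group means (-0.72) was -0.65 with normexp and ran from -1.04 without shRNA2 replicate 1 to -0.031 without shRNA2 replicate 2 when 1 hairpin array was left out. Haem genes ran from -0.78 to -0.24, membrane genes from -0.75 to -0.29, early progenitor genes from 0.38 to 0.96 and the ZFP36 family from -0.42 to 0.46. Megakaryocyte markers ran from -1.12 to 2.40 without shRNA2 replicate 1 or 2. The ZFP36 family median was -0.080 with normexp, -0.070 in the authors' table and -0.21 with no filter. Of the 23 other lists, 11 moved by more than the spread between their slide values under another processing. A probe not well above background on either array of a hairpin gives only a bound.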

Other observations

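Hypoxia and glycolysis genes had opposite medians on the slides, at 0.05 (-0.30 on slide 1 and 0.43 on slide 2), with 6 higher and 5 lower of 29 sharing a direction on both. Slc2a1, the glucose transporter GLUT1, was at 6.29 and 3.84 with shRNA1 and 4.71 and 2.94 with shRNA2, a difference of -1.24 (SE 1.12), while Ero1a, an oxidase of the endoplasmic reticulum, was at -0.50 and -0.35 with shRNA1 and -0.06 and 0.49 with shRNA2, with no overlap and a difference of 0.64 (SE 0.33). ATF4 and unfolded protein response genes were 8 higher and 6 lower of 24, at 0.07 (-0.16 on slide 1 and 0.19 on slide 2). Ddit3, which encodes CHOP, differed by -0.71 on slide 1 and -1.61 on slide 2, and Vldlr, a lipoprotein receptor, by 0.86 on slide 1 and 1.67 on slide 2. Atf4 itself was at 7.41 and 7.29 with shRNA1 and 6.09 and 7.28 with shRNA2, so its difference came from slide 1, and another probe of it gave 0.04. No limma adjusted p of these genes passed.

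Interferon-stimulated genes were 3 higher and 13 lower of 25 on both slides, at -0.21 (0.08 on slide 1 and -0.35 on slide 2). That is 12% and 52%, beside 22.2% and 45.8% over all genes. Rsad2, the antiviral protein viperin, was at 0.11 and -4.16 with shRNA1 and -1.13 and -6.54 with shRNA2; the slides lay further apart than the hairpins. Isg20, an exonuclease, was at 2.96 and 1.89 with shRNA1 and 1.93 and 0.85 with shRNA2, a difference of -1.04 (SE 0.64), and Irf7, a factor that amplifies interferon, at -2.01 and -4.46 with shRNA1 and -2.86 and -5.75 with shRNA2, a difference of -1.07 (SE 1.30). Cholesterol genes were 6 higher and 8 lower of 23, at 0.14, and Hsd17b7 and Mvk, both of the synthesis pathway, differed by 0.60 (SE 0.70) and -0.34 (SE 0.31). Tek, an angiopoietin receptor, was at -3.91 and -4.71 with shRNA1 and -5.11 and -6.09 with shRNA2, without overlap and at least 2-fold lower on both slides, and Hfe, which regulates iron uptake, at -6.88 and -5.51 with shRNA1 and -3.34 and -5.00 with shRNA2. Hfe differed by 3.54 on slide 1 and 0.51 on slide 2. Tek and Rsad2 were each well above background on 1 of the 2 shRNA2 arrays, and Hfe on 1 of the 2 shRNA1 arrays. The ZFP36 family as a list of 4 had a median of -0.15.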
